A study of Mus musculus with 2 samples.

Results

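The TNF superfamily ligands and receptors were followed through the binding map of HLF in mouse blood progenitors. They were taken as every protein-coding RefSeq gene on mm10 whose symbol starts with Tnfsf (ligands) or Tnfrsf (receptors). This gave 32 genes, 12 ligands and 20 receptors, of 21896 coding genes with a position. The read-through gene Tnfsfm13, which spans Tnfsf12 and Tnfsf13, counts among the ligands. HLF (hepatic leukemia factor) belongs to the PAR bZIP transcription factors. In the study, wild-type Lin-Sca-1+c-Kit+ (LSK) cells, the marrow fraction that holds stem and multipotent progenitor cells, were infected with a pMX-3xFLAG-Hlf/Hlf-IRES-GFP retrovirus (FLAG-HLF) or with a pMX-GFP control virus (GFP-ctrl). Both arms were kept for 5 days in OP9 medium with SCF (50 ng/ml), IL-7 and Flt3L (each at 10 ng/ml) and IL-3 (5 ng/ml), and chromatin was precipitated with an antibody to FLAG. Each arm had 1 library. The HLF profiled was therefore a tagged protein made from a virus in cultured cells, and the labels used here do not say whether the cells were sorted again after culture.

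The values come from the peaks listed for the FLAG-HLF library, 3153 intervals of 400 bases. This list carries no height, enrichment or read count, so depth is unknown, and no replicate or control list was analysed here. A peak went to the coding gene that holds its centre, and failing that to the closest coding gene end up to 100 kb away. A peak given to a gene is a statement about position. Whether the gene responds to HLF was not measured, and no marker of the cells could be read from a peak list.

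TNF superfamily ligands are mostly trimeric membrane proteins that can be shed, and they bind receptors on neighbouring cells. The receptors recruit TRAF adaptors, which lead to NF-kB and MAP kinase signalling, and some carry a death domain that can lead to caspase activation. In blood and lymphoid tissue they are known for T cell costimulation, B cell survival, osteoclast formation and the control of cell death.

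Of the 32 ligand and receptor genes, 9 were given a peak, or 28.1%, against 11.1% of all coding genes. They took 10 peaks. Among the ligands, Tnfsf14, Tnfsf15, Tnfsf18 and Tnfsfm13 had 1 peak each. Among the receptors, Tnfrsf1b, Tnfrsf8, Tnfrsf13b and Tnfrsf17 had 1 each, and Tnfrsf21 had 2. The ligand share was 33.3% (4 of 12) and the receptor share 25% (5 of 20). Genes of this superfamily lie in clusters and share peaks, so they are not independent of each other, and no test was made of these shares.

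To show what lies at the starts of these genes, the 250 bases before the start site are printed for 4 of the members with a peak. Tnfsf14 and Tnfsfm13 are the ligands whose starts were closest to their peaks, and Tnfrsf1b and Tnfrsf8 are neighbouring receptor genes that were each given a peak. The sequences are from RefSeq on GRCm38.p6, in the direction of transcription, and capitals mark a match to the NF-kB consensus.
Tnfsf14 (chr17:57194182-57194431, minus strand): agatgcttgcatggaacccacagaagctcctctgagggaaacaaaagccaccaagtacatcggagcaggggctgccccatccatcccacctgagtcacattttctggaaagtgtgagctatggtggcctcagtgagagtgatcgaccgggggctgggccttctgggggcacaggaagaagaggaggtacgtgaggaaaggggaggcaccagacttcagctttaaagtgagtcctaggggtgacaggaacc
Tnfsfm13 (chr11:69696099-69696348, minus strand): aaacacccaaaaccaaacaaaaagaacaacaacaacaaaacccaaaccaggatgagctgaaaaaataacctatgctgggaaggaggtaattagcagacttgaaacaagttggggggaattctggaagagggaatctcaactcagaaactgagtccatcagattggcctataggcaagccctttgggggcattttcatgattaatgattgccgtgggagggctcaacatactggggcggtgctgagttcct
Tnfrsf1b (chr4:145246871-145247120, minus strand): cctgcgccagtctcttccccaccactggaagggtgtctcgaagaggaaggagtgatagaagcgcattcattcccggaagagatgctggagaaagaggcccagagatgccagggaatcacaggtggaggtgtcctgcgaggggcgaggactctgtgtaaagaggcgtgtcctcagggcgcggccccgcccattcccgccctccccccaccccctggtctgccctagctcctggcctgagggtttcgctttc
Tnfrsf8 (chr4:145315165-145315414, minus strand): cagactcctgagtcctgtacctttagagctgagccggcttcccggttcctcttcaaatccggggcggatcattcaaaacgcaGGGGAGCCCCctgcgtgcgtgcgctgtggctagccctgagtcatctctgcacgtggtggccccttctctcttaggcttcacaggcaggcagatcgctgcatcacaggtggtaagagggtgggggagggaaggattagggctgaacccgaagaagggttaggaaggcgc

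No peak overlapped a listed promoter of a ligand or receptor, where a promoter is 250 bases before to 50 after a start site. RefSeq start sites were listed for 25 of the 32 genes, with 29 promoters. None was listed for Tnfrsf10b, Tnfrsf11b, Tnfrsf22, Tnfrsf26, Tnfsf12, Tnfsf4 and Tnfsf9. Over all genes, 227 of 32851 promoters (0.691%) overlapped a peak. The PAR bZIP core TTACGTAA, its variant TTATGTAA (TTACATAA on the other strand) and the C/EBP core TTGCGCAA, searched on both strands, were in 0 of the 29 promoters. The PAR bZIP consensus, which contains the core or the variant, was in 0 as well. These letters are rare in promoters. TTATGTAA was in 0.938% of all promoters and in 6.17% (14 of 227) of those that overlapped a peak. For TTACGTAA these were 0.119% and 0.441% (1 of 227), and for TTGCGCAA 0.183% and 2.64% (6 of 227). The NF-kB consensus was in the promoters of Tnfrsf8 and Tnfrsf9, 2 of the 29, against 4.51% of all promoters. Of the promoters that overlapped a peak, 7.05% (16 of 227) had it. In Tnfrsf8 the match GGGGAGCCCC began at position -168, counted from the start site. The sequence under the peaks themselves was not used here.

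**Figure D1:**
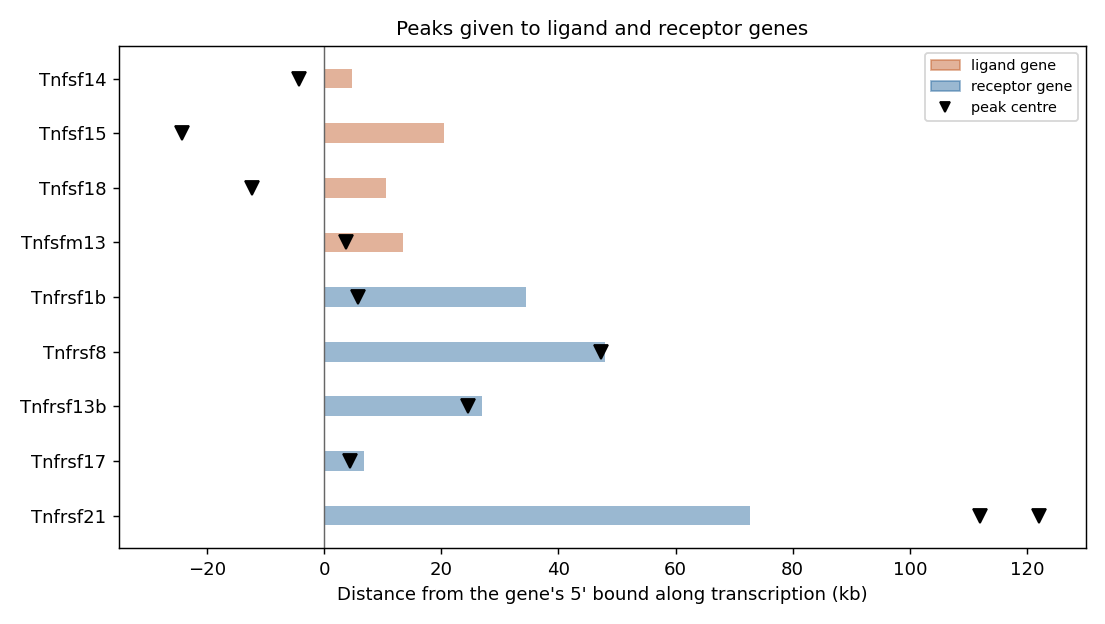
Position of the 10 peaks (triangles, peak centres) given to 4 ligand and 5 receptor genes, in kb from the 5′ bound of each gene along the direction of transcription, with each gene drawn as a bar. The 3 outside peaks of ligands lie before the gene, and the 2 outside peaks of Tnfrsf21 lie beyond its far end.

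The ligand peaks all lay toward the 5′ ends. Tnfsf14 encodes LIGHT, which binds the herpesvirus entry mediator and the lymphotoxin beta receptor (chromosome 17, 57189474 to 57194181, minus strand). Its peak, at 57198277 to 57198676, was centred 4.30 kb before the start site. The next coding gene there, C3, was almost as near, at 5.49 kb. Tnfsf18 encodes the ligand of GITR, a T cell costimulator (chromosome 1, 161494657 to 161505290, plus strand). Its peak at 161482232 to 161482631 was 12.2 kb before the start site, with Tnfsf4, which encodes OX40 ligand, the next coding gene at 64.2 kb. Tnfsf15 encodes TL1A, the ligand of death receptor 3 (chromosome 4, 63724600 to 63745059, minus strand). Its peak at 63769109 to 63769508 was 24.2 kb before the start site, and Tnfsf8, which encodes CD30 ligand, was the next coding gene at 61.9 kb. In each of these 3 cases the peak lay between the ligand gene and another coding gene, and the ligand was the nearer.

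The ligand peak inside a gene fell in the Tnfsf12 and Tnfsf13 locus on chromosome 11. Tnfsf12 encodes TWEAK and Tnfsf13 encodes APRIL, a B cell and plasma cell survival factor. The peak at 69692153 to 69692552 lay inside both Tnfsfm13 (69682577 to 69696098, minus strand) and Tnfsf12 (69686240 to 69696098), 3.75 kb from the upper end that they share. It was given to Tnfsfm13 only by the order of the gene table, since both ends are equally near. With the read-through gene left out, the peak went to Tnfsf12 and the number of ligand genes with a peak was still 4. The same peak was 6.80 kb before the start site of Tnfsf13 (69682577 to 69685554). A further peak, given to Eif4a1, lay 11.1 kb beyond the other end of Tnfsf13.

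The receptor peaks lay mostly toward the 3′ ends. Tnfrsf8 encodes CD30, a receptor of activated lymphocytes (chromosome 4, 145267132 to 145315164, minus strand). Its peak at 145267604 to 145268003 was 0.671 kb inside the 3′ end, and 47.4 kb from the start site. This peak was nearer to the start site of the neighbouring receptor gene Tnfrsf1b, lying 20.9 kb before it. Tnfrsf13b encodes TACI, a receptor for BAFF and APRIL (chromosome 11, 61126283 to 61153170, plus strand). Its peak at 61150619 to 61151018 was 2.35 kb inside the 3′ end and 24.1 kb after the nearest listed start site. The end of the next gene, Usp22, lay nearer, at 0.963 kb, and took this peak when peaks went to the nearest gene end (10.8% of coding genes had a peak by that rule). Tnfrsf17 encodes BCMA, the plasma cell receptor for the same ligands (chromosome 16, 11313232 to 11320074, plus strand). Its peak at 11317410 to 11317809 was 2.46 kb inside the 3′ end and 3.80 kb after the listed start site, in a gene only 6.84 kb long.

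The other receptors given peaks were Tnfrsf1b and Tnfrsf21. Tnfrsf1b encodes TNFR2, the TNF receptor without a death domain (chromosome 4, 145212368 to 145246870, minus strand). Its peak at 145240936 to 145241335 was inside the gene, 5.74 kb after the start site, and was the only receptor peak nearest to a 5′ end. Tnfrsf21 encodes death receptor 6 (chromosome 17, 43016555 to 43089188, plus strand). Its 2 peaks, at 43128264 to 43128663 and 43138359 to 43138758, were 10.1 kb apart and lay 39.3 and 49.4 kb beyond the 3′ end. The next coding gene, Adgrf1, was 142 and 132 kb from them. When noncoding genes competed, Tnfrsf21 and Tnfsf15 were the members that lost their peaks, and 8.78% of coding genes then had one.

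Counted together, 4 of 4 ligand peaks and 1 of 6 receptor peaks were nearest to the 5′ end of their gene. Over all genes with a listed strand, 63.9% of 2363 peaks were nearest to the 5′ end. Inside a gene lay 1 of 4 ligand peaks and 4 of 6 receptor peaks, against 58.2% of the 2994 peaks given to any gene. A peak lay inside 5 of the 32 members' bounds by this assignment, against 6.73% of coding genes. With 4 and 6 peaks these splits are descriptions. Within 5 kb of a listed start site, a peak centre was found for 3 of the 25 members with one (Tnfsf14, Tnfsfm13 and Tnfrsf17), against 4.1% of 17273 coding genes. Within 1 kb there was none, against 1.74%.

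**Figure D2:**
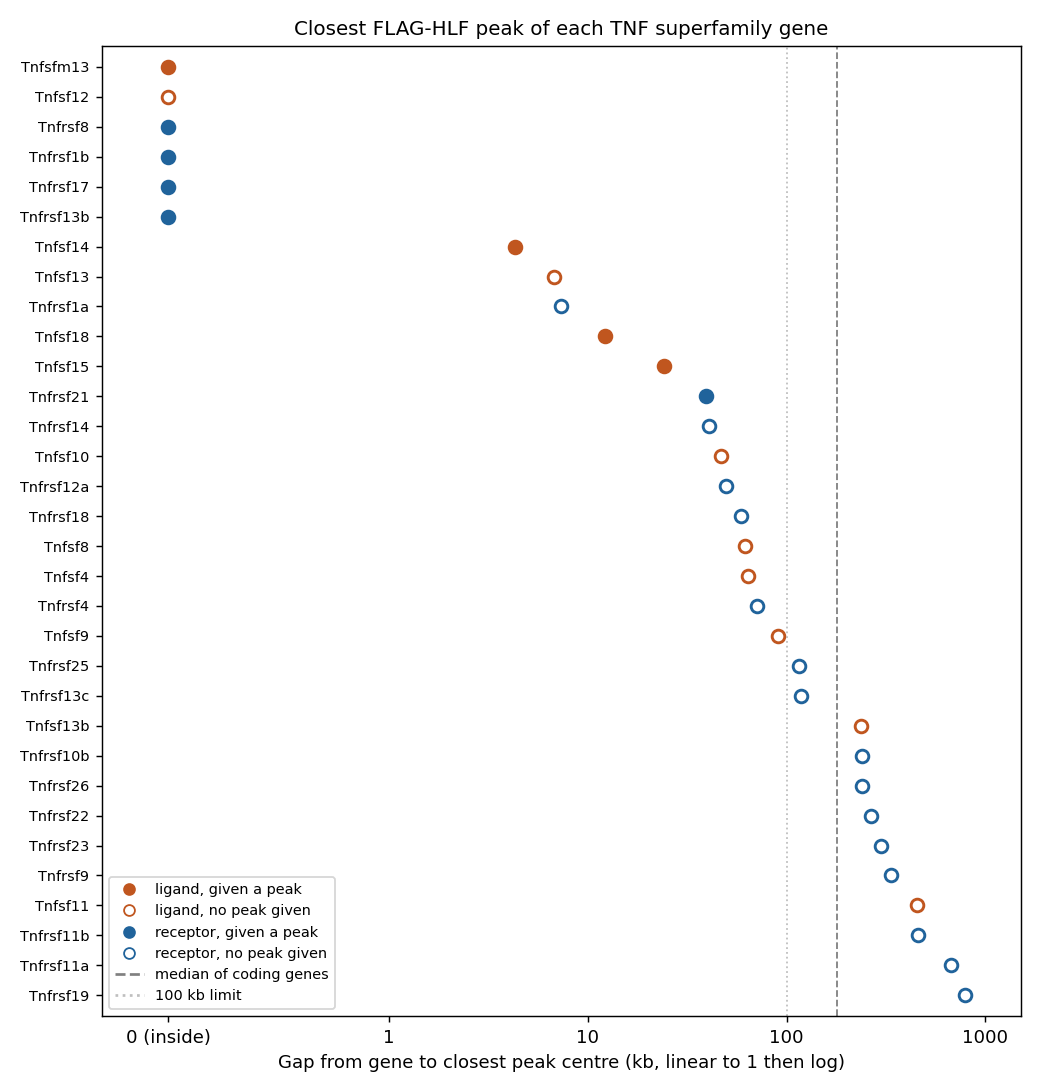
Gap in kb (linear up to 1, then log scale) from each of the 32 genes to its closest peak centre, 0 where the peak is inside the gene. Filled points were given a peak. The dashed line is the median of coding genes (180.0 kb) and the dotted line the 100 kb limit. There are 20 members at or below 90.7 kb and 12 at 116 kb or more.

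Some members without a peak of their own had one inside or within 100 kb. Of the 23 members given no peak, 11 had such a peak, given to another gene. The same share among coding genes given no peak was not computed. Including those with a peak, 20 of 32 members (62.5%) had a peak inside or within 100 kb, against 36.3% of coding genes. By class these were 10 of 12 ligands and 10 of 20 receptors. The median gap to the closest peak was 35.5 kb for ligands, 93.6 kb for receptors and 180.0 kb for the 21627 coding genes on chromosomes with a peak. The same peak was the closest to Tnfsfm13, Tnfsf12 and Tnfsf13. Other neighbouring ligands also shared their closest peak, so the ligand gaps are not independent values. The same holds for the receptor gaps, where Tnfrsf4 and Tnfrsf18 shared a closest peak, as did Tnfrsf26, Tnfrsf22 and Tnfrsf23. Tnfrsf1a, which encodes TNFR1, the death domain receptor of TNF, had a peak 7.32 kb before its start site (chromosome 6, 125342207 to 125342606). That peak lay inside the neighbouring gene Scnn1a and was given to it. Tnfrsf14, the LIGHT receptor gene, had its closest peak at 40.5 kb, inside Mmel1. Tnfsf10, which encodes the death ligand TRAIL, had its closest at 46.8 kb, and that peak was nearer to Nceh1. Tnfrsf12a, the TWEAK receptor gene, had 1 inside Pkmyt1 at 49.5 kb. Tnfrsf18 and Tnfrsf4, which encode GITR and OX40, had the same closest peak at 59.0 and 71.3 kb. Tnfsf8, Tnfsf4 and Tnfsf9, at 61.9, 64.2 and 90.7 kb, had as their closest peak the one given to Tnfsf15, Tnfsf18 and Tnfsf14.

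The remaining 12 members had no peak within 100 kb. They were 2 ligands and 10 receptors, with gaps of 116 to 787 kb. Just outside the limit were Tnfrsf25, which encodes death receptor 3, at 116 kb and Tnfrsf13c, the BAFF receptor gene, at 118 kb. Tnfsf13b, which encodes BAFF, was at 237 kb. The TRAIL receptor gene Tnfrsf10b was at 238 kb. The chromosome 7 group of Tnfrsf26, Tnfrsf22 and Tnfrsf23 was at 239, 266 and 297 kb, all from the same peak, given to Kcnq1. Tnfrsf9, which encodes the costimulator 4-1BB, was at 336 kb. The osteoclast genes Tnfsf11 (RANKL), Tnfrsf11b (the decoy osteoprotegerin) and Tnfrsf11a (RANK) were at 452, 458 and 668 kb. Tnfrsf19 was the farthest, at 787 kb.

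The groups by known function were small, and their counts are descriptions beside the 11.1% of all coding genes given a peak. Of the 6 ligands of T cell costimulation, 3 were given a peak (Tnfsf14, Tnfsf15 and Tnfsf18), and of the 6 matching receptors only Tnfrsf8. Of the 3 B cell survival receptors, 2 were given a peak (Tnfrsf13b and Tnfrsf17). Their ligand BAFF had none, and the locus of their ligand APRIL held the peak described above. Of the 6 genes grouped as bone and tissue regulators, 0 were given a peak, and Tnfsf12 was the only one of them to hold a peak within its bounds. Among 15 known ligand and receptor pairs, 0 had a peak given to both genes, 8 to one and 7 to neither. Tnfsf12 and its receptor count under neither because the tie gave the chromosome 11 peak to Tnfsfm13. With Tnfsfm13 left out, that peak went to Tnfsf12. The count of 0 also depends on the read-through gene being in none of the pairs. Tnfsf13 was given no peak, so its pairs with Tnfrsf13b and Tnfrsf17 count under one. With Tnfsfm13 in place of Tnfsf13, both genes of these pairs would have a peak. With 11.1% of coding genes given a peak, pairs with both are rare for any genes. When a peak counted for every coding gene within 100 kb, a rule that 36.3% of coding genes met, both genes had one in 7 pairs, and several pairs share a gene or a peak. These included OX40 with its ligand, GITR with its ligand, LIGHT with Tnfrsf14, CD30 with its ligand and TWEAK with its receptor. APRIL with TACI and with BCMA were the others.

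Position was shared as well as function. Superfamily genes that are consecutive coding genes formed 8 clusters, which held 16 of the 32 members. Of these clusters, 5 had a peak and 3 did not. The share for other runs of consecutive coding genes was not computed, so this count has no matching background. The 11.1% of coding genes given a peak is for single genes, and a run has more genes that can take one. Tnfrsf1b and Tnfrsf8 were the only cluster in which more than 1 gene was given a peak. Their peaks were 26.7 kb apart in a span of 103 kb. The clusters of Tnfsf4, Tnfsf18 and Fasl, of Tnfsf15 and Tnfsf8, of Tnfsf9, Cd70 and Tnfsf14, and of Tnfsf13, Tnfsfm13 and Tnfsf12 each had 1. Those with none were Ltb, Tnf and Lta, then Tnfrsf4 and Tnfrsf18, and the chromosome 7 group.

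Gene length, which affects how many peaks a gene can hold, was similar for the members (median 18.6 kb) and for the coding genes (17.3 kb). In the shortest of 4 equal length classes, 1 of 8 members had a peak against 3.24% of coding genes. In the next classes the counts were 3 of 8 against 7.53% and 3 of 12 against 11.3%. In the longest class they were 2 of 4 against 22.7%. Members with a peak had a median length of 20.5 kb, and coding genes with a peak 45.9 kb. In the order of the file's lines, which no source used here explains, 2 of the 10 member peaks lay in the first 1576 lines, against 49.8% of all peaks given to a gene. Those lines gave a peak to 6.11% of coding genes and the last 1577 lines to 6.15%.

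**Figure D3:**
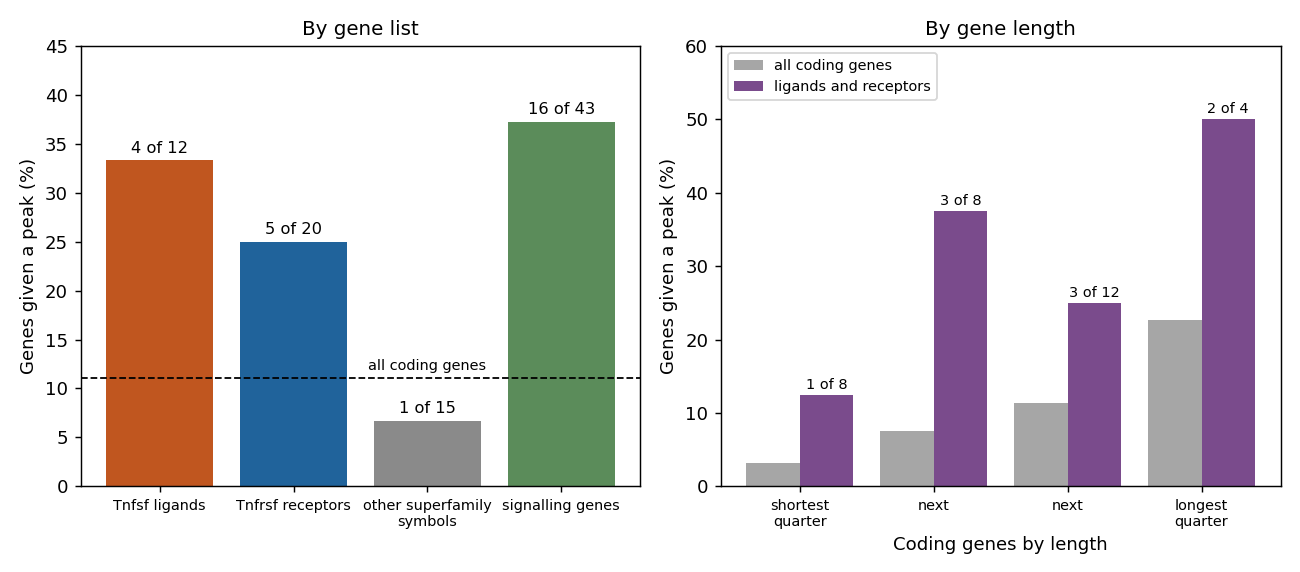
Percent of genes given a peak, by gene list (left, dashed line at 11.1% for all coding genes) and by length class (right, grey for all coding genes and purple for ligands and receptors). Labels on the bars give the number of genes with a peak of the number in the list or class.

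Superfamily genes under other symbols were counted apart. Of 15 such genes, among them Tnf, Lta, Ltb, Fas, Fasl, Cd40 and Ltbr, only Cd27 was given one (6.67%, near the 11.1% of all coding genes). Cd27 encodes a costimulator found on lymphocytes and on multipotent progenitors (chromosome 6, 125232620 to 125237136, minus strand). Its peak at 125237523 to 125237922 was 0.586 kb outside the 5′ end of the gene and 0.695 kb before the nearest listed start site. It also lay inside the noncoding gene E130112N10Rik, 2.21 kb from an end of it, and went to that gene when noncoding genes competed. The gap to the closest peak was 68.2 kb for Tnf, 64.6 kb for Lta and 73.9 kb for Ltb, to a peak given to H2-D1. For Ltbr, which lies between Cd27 and Tnfrsf1a on chromosome 6, it was 28.5 kb.

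Downstream of the receptors, 16 of 43 signalling genes were given a peak (37.2%, against 11.1% of coding genes), with 20 peaks in all. The list was chosen with earlier results of these data known, and this share was not tested. These genes are longer than the members, with a median of 29 kb. In the longest length class, 9 of 17 had a peak, against 22.7% of coding genes. In the other classes, from the shortest up, the counts were 1 of 4 against 3.24%, 3 of 9 against 7.53% and 3 of 13 against 11.3%. Of the 5 NF-kB subunit genes, 4 were given a peak. Nfkb2, the p100/p52 gene, had 1 peak 0.401 kb inside its 5′ end, and 3.34 kb before the nearest listed start site. Rel had 1 peak 2.94 kb after its start site. Rela had 1 peak 0.713 kb beyond its 3′ end, and Nfkb1 had 1 peak 1.98 kb inside its lower end. Relb was given none. Nfkbia, which encodes the inhibitor IkB alpha, had 1 peak 0.516 kb beyond its 3′ end. Nfkbib and Nfkbie were given none.

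Among the other signalling genes, peaks lay at a start site of Birc2 and near those of Mlkl, Traf5 and Adam17. Birc2 encodes cIAP1, a ubiquitin ligase bound to TNF receptor complexes. Its peak (chromosome 9, 7836645 to 7837044) was centred 0.038 kb before a listed start site, and it was the only peak to overlap a listed promoter among all genes of the 4 lists. Mlkl, the executor of necroptosis, had 1 peak 0.192 kb outside its 5′ end. Traf5, an adaptor of several of these receptors, had 1 peak 2.08 kb before its start site. Adam17, the protease that sheds TNF, had 1 peak 3.21 kb after its start site. Tnfaip3, which encodes the NF-kB restraining enzyme A20, had 3 peaks, all outside the gene. They lay 47.3 kb before its 5′ end, and 57.4 and 59.2 kb beyond its 3′ end. Tab2, an adaptor of the kinase TAK1, had 1 peak inside, 23.4 kb from an end, and 1 outside at 64.9 kb. Tnfaip8 had 2 inside, at 36.9 and 48.1 kb. When noncoding genes competed, the Tnfaip3 peak at 47.3 kb, the outside Tab2 peak and the Tnfaip8 peak at 48.1 kb went to noncoding genes. Tnfaip3, Tab2 and Tnfaip8 each still kept a peak. The other 4 signalling genes with a peak held it inside the gene, 12.5 to 84.4 kb from an end. The NF-kB consensus was in the promoters of 10 of the 36 signalling genes with a listed start site, 13 of 49 promoters, against 4.51% of all promoters. Some of these genes have more than 1 listed promoter. Among the signalling genes with a peak, those with the consensus were Map3k7, Nfkb2, Nfkbia, Rel, Tnfaip3 and Traf3. Cyld, Nfkbie, Tank and Tnip1 had it too and were given no peak. No peak overlapped a listed promoter of any of these genes. The PAR bZIP core, its variant, the PAR bZIP consensus and the C/EBP core were in 0 of these 49 promoters.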

How the data were processed

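There were 2 libraries of chromatin precipitated with an antibody to FLAG, and the deposited peaks of FLAG-HLF were analysed. The file gives chromosome, start and end of each peak in 3 columns, on mm10 (GRCm38). Bowtie2, bedtools and MACS2 are named per the submitters' processing notes. The sources used here give no versions, peak threshold or origin of the fixed width. Coordinates are printed from 1.

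Peak centres (200 bases after the start in the file) were set against the RefSeq gene table of GRCm38.p6 (49997 genes). A peak inside several coding genes went to the one with the nearest end, with ties broken by table order. Of the peaks, 2994 were given to 2420 genes and 159 to none. Start sites and strand came from the RefSeq promoter table. In 1894 overlaps of promoters on opposite strands the letters matched in 1894. The assignment was tested on 1000 simulated peaks and matched a separate slow count in 1000.

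All values are counts and distances with no test. The members, the lists of 15 and 43 genes, function groups and pairs were chosen with earlier results of these data known. Every member with a peak is named. Of those without, the rule names 10 near a peak and the extremes, and the others were named after their values were seen. Up to 12 genes per other list are named, and those further ones in the promoter counts were also named afterwards. Python 3.11.15, numpy 2.4.6, pandas 2.3.3 and matplotlib 3.10.9 were used.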

Additional observations from a re-analysis of the deposited data

How the results depend on the processing

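Of 64 alternative values for 6 counts, 47 stayed within 1.5 times the reported count. Limits of 20, 50 and 200 kb, the nearest gene end, and leaving out predicted symbols or Tnfsfm13 moved none past it, and the last was chosen after the data were seen. Counting a peak for every coding gene within 100 kb gave 10 ligands with 14 peaks, 10 receptors with 15, 9 genes under other symbols and 28 signalling genes, against 36.3% of coding genes. Only peaks inside the gene left 1 ligand with 1 peak and 0 genes under other symbols, against 6.73% of coding genes. With noncoding genes competing, 0 genes under other symbols kept a peak, against 8.78% of coding genes. The first 1576 lines gave a peak to 6.11% of coding genes and the last 1577 to 6.15%, against 11.1% with all lines. The first lines gave 1 ligand with 1 peak, 1 receptor with 1 peak, 0 genes under other symbols and 9 signalling genes. The last lines gave 8 signalling genes. Depth is unknown, so a gene without a peak may lie under the authors' threshold. No paired analysis was possible because each arm had 1 library and 1 peak list was analysed.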
